A study of Mus musculus with 24 samples.

Results

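Binding of 3 transcriptional regulators (TRs) was examined at the loci of 8 genes of upper-layer cortical neuron identity, Cux1, Cux2, Pou3f1, Pou3f2, Pou3f3, Rorb, Mef2c, and Lhx2. They were chosen by name and are 8 of the 21951 protein-coding genes on the main mouse chromosomes. A peak was assigned to a gene when it overlapped the gene body (GENCODE vM21, GRCm38) or the 100 kb on either side of it. This gave 1225 of the 315145 peaks in 6 lists. The lists came from chromatin immunoprecipitation sequencing (ChIP-seq) of wild-type mouse cortex, CD1 background, at E15.5 or E18.5 (days of embryonic development) with antibodies against ARID1B, FOXP1, or TCF7L2. ARID1B belongs to the nucleosome-remodeling BAF complex. FOXP1 binds DNA through a forkhead domain, and TCF7L2, which has an HMG box, acts with β-catenin downstream of Wnt ligands. The labels name the third antibody TCF4, an older name of TCF7L2, and the study's methods name TCF7L2. Each condition had 2 ChIP and 2 input libraries. A single peak list was analyzed for each condition. The labels attach it to replicate 1, while the study's methods describe calling on merged replicates, and it was taken as merged without a check against reads. Either way, no difference between lists could be set against a spread between replicates, and no test was made.

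ChIP-seq fragments come from all cells of the dissected tissue, and a peak therefore does not say in which cell type the protein was bound. Expression was not measured in these files, and the name upper-layer was not checked against them. The recovered depth was 26.3 M reads in the smaller library of the FOXP1 E18.5 list and 57.3 to 80.7 M in the other 5 lists. Fold enrichment, as the authors' peak caller gave it, is the reads over a peak's summit plus 1, divided by a constant genomic background plus 1, with reads scaled to the smaller library. The added 1 lowers folds the more the lower the background, which was 2.81 reads in the FOXP1 E18.5 list and 6.13 to 8.63 in the others. Folds of that list are thus understated relative to the others. Its 95% interval here is an exact Poisson interval on the reads over the summit and covers counting error only.

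Cux1 and Cux2 encode cut-homeodomain transcription factors found in upper-layer cortical neurons, where they act in dendrite and synapse formation. Pou3f1, Pou3f2, and Pou3f3 are single-exon genes for POU-homeodomain factors, and Pou3f2 and Pou3f3 (Brn2 and Brn1) act redundantly in the production and migration of upper-layer neurons. Rorb encodes a nuclear receptor that marks layer 4 neurons, Mef2c a MADS-box factor of excitatory neuron maturation, and Lhx2 a LIM-homeodomain factor that acts early in cortical progenitors. Promoters were the 2000 bp upstream of any annotated transcription start site (TSS). All other peaks were taken as intronic, exonic, or flanking by their position.

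For each gene, the non-promoter locus with peaks in the largest number of lists and, among these, with the highest lowest fold is shown as 200 bp around its median summit. It gives the reader the sequence of the most widely shared distal site (GRCm38, plus strand). Capitals mark the one motif core found in these windows out of 5 searched, the E-box CATCTG or its reverse complement CAGATG.

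Cux1, intron, chr5:136487725-136487924: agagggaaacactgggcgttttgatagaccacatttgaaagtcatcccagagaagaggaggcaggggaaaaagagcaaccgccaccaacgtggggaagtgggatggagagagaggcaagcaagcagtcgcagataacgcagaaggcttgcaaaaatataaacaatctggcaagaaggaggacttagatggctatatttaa

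Cux2, upstream flank, chr5:122081005-122081204: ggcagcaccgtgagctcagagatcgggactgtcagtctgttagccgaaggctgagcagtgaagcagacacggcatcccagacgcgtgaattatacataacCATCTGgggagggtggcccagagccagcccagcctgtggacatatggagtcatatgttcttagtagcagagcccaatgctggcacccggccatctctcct

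Pou3f1, upstream flank, chr4:124594950-124595149: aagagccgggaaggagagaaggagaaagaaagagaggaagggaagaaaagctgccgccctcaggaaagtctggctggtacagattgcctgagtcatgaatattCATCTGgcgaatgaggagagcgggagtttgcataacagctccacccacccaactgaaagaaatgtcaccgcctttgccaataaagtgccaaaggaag

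Pou3f2, upstream flank, chr4:22491360-22491559: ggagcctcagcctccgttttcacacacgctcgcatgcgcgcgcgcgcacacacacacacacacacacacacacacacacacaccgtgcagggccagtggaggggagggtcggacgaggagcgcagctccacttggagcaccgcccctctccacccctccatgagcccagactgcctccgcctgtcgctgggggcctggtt

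Pou3f3, upstream flank, chr1:42686729-42686928: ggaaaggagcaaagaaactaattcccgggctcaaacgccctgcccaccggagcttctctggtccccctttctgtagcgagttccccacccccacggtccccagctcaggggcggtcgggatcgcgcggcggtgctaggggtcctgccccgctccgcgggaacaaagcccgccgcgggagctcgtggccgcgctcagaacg

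Rorb, downstream flank, chr19:18889234-18889433: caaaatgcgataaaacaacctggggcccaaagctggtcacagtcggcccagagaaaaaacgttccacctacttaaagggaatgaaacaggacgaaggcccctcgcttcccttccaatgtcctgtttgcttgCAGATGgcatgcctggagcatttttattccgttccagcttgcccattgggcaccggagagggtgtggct

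Mef2c, downstream flank, chr13:83715072-83715271: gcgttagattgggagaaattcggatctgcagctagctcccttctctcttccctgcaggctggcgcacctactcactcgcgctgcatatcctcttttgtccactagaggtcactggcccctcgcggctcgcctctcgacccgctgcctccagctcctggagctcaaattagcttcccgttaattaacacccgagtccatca

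Lhx2, downstream flank, chr2:38460863-38461062: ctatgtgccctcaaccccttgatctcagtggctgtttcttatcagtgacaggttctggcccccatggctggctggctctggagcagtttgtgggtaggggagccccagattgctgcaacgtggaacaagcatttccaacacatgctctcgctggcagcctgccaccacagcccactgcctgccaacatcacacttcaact

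The loci in this set had a peak in all 6 lists, except the Rorb locus, which had one in 5 and none of FOXP1 at E18.5. Their lowest folds ranged from 4.16 at Rorb to 6.50 at Mef2c. The GC content of the 200 bp ran from 47.5% at Cux1 to 67.0% at Pou3f2 and 68.5% at Pou3f3.

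A promoter peak was found for 8 of the 8 genes in each E15.5 list (ARID1B, FOXP1, TCF7L2), against 58.8%, 61.8%, and 57.3% of all protein-coding genes. At E18.5, all 8 had one of ARID1B and of TCF7L2, against 57.3% and 61.2%, and 7 had one of FOXP1, against 55.0%. All 3 TRs were at the promoter of 8 genes at E15.5 (55.5% of all genes) and of 7 at E18.5 (52.9%). A promoter peak in all 6 lists was found for 7 of the 8, and for 51.8% of all genes. Requiring the summit itself inside the 2000 bp left 5 genes for TCF7L2 at E15.5, beside 45.4% of all genes, since several of the strongest peaks were centered just downstream of the TSS.

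**Figure D1:**
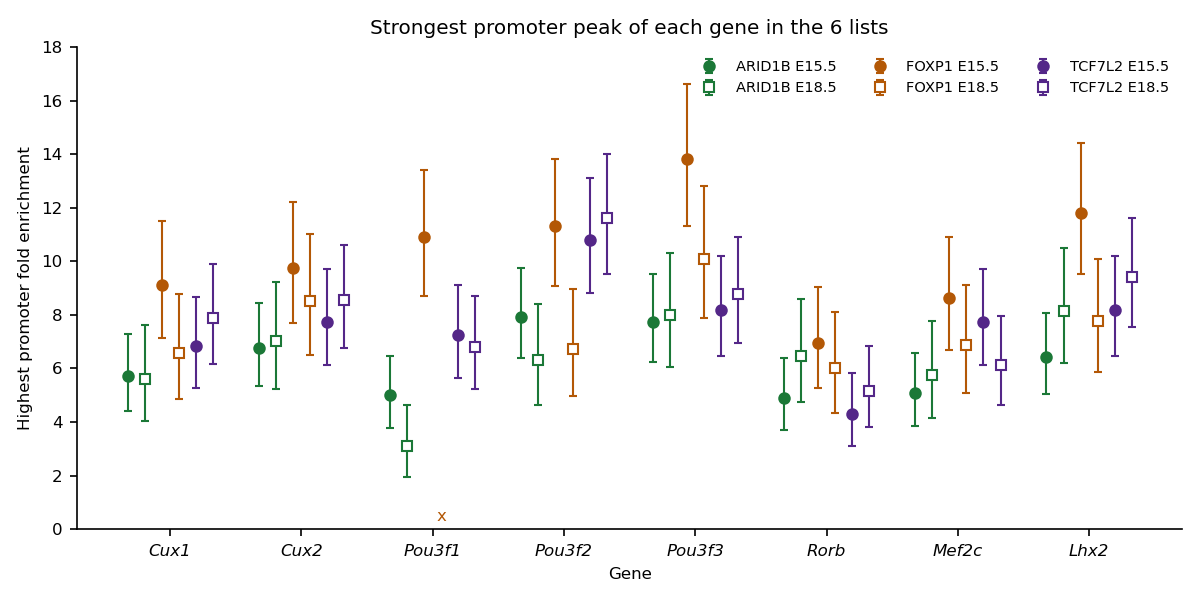
Highest fold enrichment of a promoter peak (y axis, no unit) for each of the 8 genes (x axis) in each list, with filled circles for E15.5, open squares for E18.5, and 95% Poisson intervals. Pou3f1 has no FOXP1 promoter peak at E18.5 (x), and Rorb lies between 4.31 and 6.96 throughout.

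Pou3f1 was the one gene without a FOXP1 promoter peak at E18.5, and this turned on where its peak lay. The gene, at chr4:124656807-124660655 on the plus strand, had its strongest peak of the TSS region 504 to 695 bp downstream of the TSS in every list. In the E15.5 lists, this peak reached across the TSS and had a fold of 4.99 (ARID1B), 10.9 (FOXP1), or 7.23 (TCF7L2). In the E18.5 lists, its fold was 6.17 (ARID1B), 9.24 with an interval of 7.13 to 11.8 (FOXP1), or 6.79 (TCF7L2). The FOXP1 peak at that stage started at 124656953, inside the gene, and so did not touch the promoter as defined. With promoters extended to 500 bp downstream of the TSS, all 8 genes had a FOXP1 peak at E18.5, beside 56.1% of all genes. For ARID1B at E18.5, the promoter value of 3.09 (1.96 to 4.64) likewise belonged to a small upstream peak, and the extended promoter gave 6.17.

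Pou3f2 (chr4:22482780-22488366, minus strand) carried the strongest TCF7L2 promoter binding of the set. Its TCF7L2 fold was 10.8 (8.82 to 13.1) at E15.5 and 11.6 (9.51 to 14.0) at E18.5, higher than at 96.6% and 97.0% of the protein-coding genes with a TCF7L2 promoter peak. Its FOXP1 fold was 11.3 (9.06 to 13.8) at E15.5 and 6.74 (4.97 to 8.96) at E18.5. As reads over background without the added 1, the values were 12.8 (10.2 to 15.7) and 8.78 (6.38 to 11.8), with overlapping intervals, as for all 23 pairs of gene and TR with a promoter peak at both stages. The gene stood at the 54.5th and the 25.5th percentile of bound genes in the respective list, the second being the shallowest of the 6. The ARID1B fold was 7.93 (6.38 to 9.74) at E15.5 and 6.31 (4.62 to 8.42) at E18.5. The TCF7L2 summits lay 0.0440 and 0.0550 kb from the TSS, inside the gene, so that requiring a summit in the promoter left no TCF7L2 peak there and lowered the ARID1B values to 3.39 and 4.07.

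Pou3f3 (chr1:42695768-42703176, plus strand) had the highest FOXP1 promoter folds of the 8 genes, 13.8 (11.3 to 16.6) at E15.5 and 10.1 (7.90 to 12.8) at E18.5. Its ARID1B folds of 7.75 (E15.5) and 7.99 (E18.5) were above those of 91.1% and 87.1% of bound genes. The TCF7L2 fold was 8.17 (E15.5) or 8.76 (E18.5). The TCF7L2 peak was broad, 3984 bp and then 3758 bp, and it also took in a promoter of the neighboring noncoding gene Pantr1. Reads of such a shared promoter cannot be told apart by gene.

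Lhx2 (chr2:38339281-38369733, plus strand) had E15.5 promoter folds of 6.41 (ARID1B), 11.8 (FOXP1), and 8.17 (TCF7L2). The E18.5 folds were 8.13, 7.77, and 9.41. The intervals of the 2 stages overlapped for every TR. Lhx2 has 2 separate promoters, and the downstream one, 11.5 kb from the first TSS, was the stronger in every list. In the same order of TRs, the upstream one had 4.28, 7.34, and 4.83 in the E15.5 lists. It had 4.21, 4.97, and 5.36 in the E18.5 lists.

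Cux2 (chr5:121856366-122050102, minus strand) had 7 separate promoters in the annotation, and peaks lay at 3 of them. The first had E15.5 folds of 6.15 (ARID1B), 9.75 (FOXP1), and 7.75 (TCF7L2), and E18.5 folds of 6.03, 8.50, and 8.54. A protein-coding transcript starts 125 kb downstream of it, and its promoter was also bound in all 6 lists, with 6.77, 5.70, and 4.52 (E15.5) and 7.01, 3.94, and 5.04 (E18.5). For ARID1B, the internal promoter was thus the higher one, with overlapping counting intervals at both stages. A noncoding start 155 kb downstream had peaks in 5 lists, FOXP1 at E18.5 excepted, with folds from 3.28 to 6.45. The internal coding promoter is shown because every list has a peak there as well as at the first promoter, more than 100 kb away (200 bp around the median summit, GRCm38, plus strand, no motif core found):

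Cux2, internal promoter, chr5:121925318-121925517: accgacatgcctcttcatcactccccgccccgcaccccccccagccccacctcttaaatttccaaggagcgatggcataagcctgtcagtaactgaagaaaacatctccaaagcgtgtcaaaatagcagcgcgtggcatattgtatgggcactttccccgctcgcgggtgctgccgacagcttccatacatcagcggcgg

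Mef2c (chr13:83504034-83667080, plus strand) also had 7 promoters, and the most upstream annotated one had no peak in any list. The promoter 19.4 kb downstream, where 11 of its 27 TSSs lie, was bound in all 6. Its E15.5 folds were 5.08 (ARID1B), 8.61 (FOXP1), and 7.75 (TCF7L2), and its E18.5 folds 5.75, 6.88, and 6.13. A further promoter 68.3 kb from the first TSS had weaker peaks in 4 lists, from 3.28 to 4.35, and the other 4 downstream ones had none.

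Rorb (chr19:18930605-19111196, minus strand) had the weakest promoter of the set for TCF7L2, with a fold of 4.31 (3.12 to 5.82) at E15.5 and 5.14 (3.80 to 6.83) at E18.5. These exceeded 13.2% and 26.1% of bound genes. The FOXP1 folds were 6.96 (E15.5) and 6.0 (E18.5), exceeding 24.8% and 18.2%. For ARID1B, it was 4.90 (3.71 to 6.37) at E15.5 and 6.45 (4.74 to 8.59) at E18.5. Only the first promoter was bound, and the second, 110 kb downstream with 3 TSSs of its own, had no peak in any list.

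Cux1 (chr5:136248135-136567490, minus strand) had its promoter peaks at the first of 5 promoters in every list. The E15.5 folds there were 5.70 (ARID1B), 9.11 (FOXP1), and 6.82 (TCF7L2). The E18.5 folds were 5.61, 6.59, and 7.88. The other 4 promoters held a peak in the FOXP1 E15.5 list and in none of the other 5 lists, with folds from 3.04 to 9.11, and 3 of these peaks belong to the exon peaks described further on.

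Over the 8 genes, the median promoter fold was 6.06 (ARID1B), 10.3 (FOXP1), and 7.75 (TCF7L2) at E15.5, beside 5.17, 10.6, and 6.40 for all protein-coding genes with a promoter peak. At E18.5, it was 6.38, 6.88, and 8.21, beside 5.61, 8.65, and 6.57. The ARID1B and TCF7L2 medians were above those of all bound genes at both stages, and the FOXP1 medians below. The FOXP1 medians of the comparison lists described further on were below as well. They were 6.83 (E15.5) and 5.78 (E18.5) for other upper-layer genes, 8.99 and 5.71 for deep-layer, and 7.47 and 5.27 for radial glia genes. The TCF7L2 medians were above for radial glia genes (6.76 and 7.01) and below for the other lists. For ARID1B, only the other upper-layer genes (5.61 and 5.75) were above at both stages. The mean observed to expected CpG ratio of the promoters was 0.754 for Pou3f3, 0.682 for Cux1, 0.677 for Pou3f2, 0.510 for Lhx2, 0.424 for Cux2, 0.414 for Mef2c, 0.268 for Rorb, and 0.222 for Pou3f1, with a median of 0.288 over all genes. Within genes, the first promoter of Cux1 had a ratio of 0.845 and its other 4, with a FOXP1 peak of E15.5 alone, had 0.121 to 0.227. The Mef2c promoters with peaks had 0.565 (all 6 lists) and 0.330 (4 lists), and those without had 0.232 to 0.277.

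The windows of most genes were dense in peaks. Summed over the 6 lists, the 8 windows held a median of 60.6 peaks per 100 kb, against 15.8 for all protein-coding genes, whose quartiles were 6.43 and 28.7. Cux2 had 75.2 per 100 kb, Pou3f1 74.1, Pou3f3 64.6, Mef2c 63.9, Lhx2 57.3, Cux1 34.3, and Pou3f2 30.2. These 7 lay above the upper quartile. Rorb, with 10.5 per 100 kb, lay at the 35.6th percentile, and it was below the median of all genes in each list. Without the FOXP1 exon peaks described further on, Cux1 had 30.4 per 100 kb, still above the upper quartile.

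**Figure D2:**
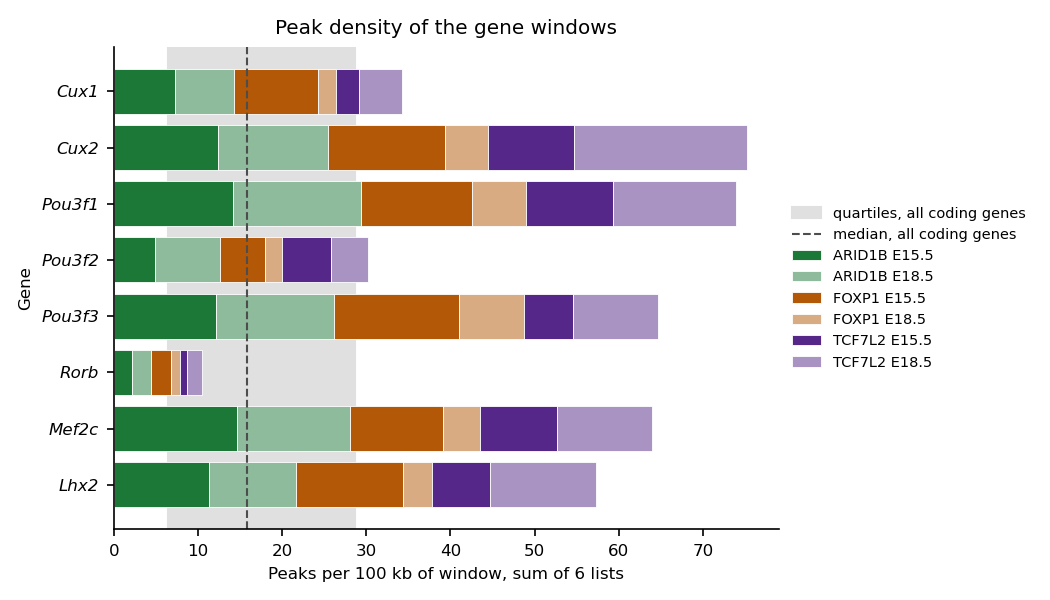
Peaks per 100 kb of window (x axis) for each gene (y axis), stacked by list, with the quartile range (gray) and the median (dashed) of the same sum over all protein-coding genes. Rorb alone lies below the median of 15.8, and Cux2 reaches 75.2.

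By position, 144 of the 1225 peaks were at the gene's own promoters, 189 at promoters of other genes, 313 intronic, 70 exonic, and 509 flanking. The intronic class held every other peak that overlapped the body with its summit outside exons, and 2 of the 313, FOXP1 peaks of E15.5 at the 3′ ends of the single-exon Pou3f1 and of Lhx2, had their summit past the gene's end. Per list, the windows held 238 (ARID1B), 254 (FOXP1), and 151 (TCF7L2) peaks of E15.5. For E18.5, the counts were 245, 92, and 245. With all lists shortened to 24890 peaks by strength, the windows held 81, 101, and 112 peaks of E15.5, beside 79, 92, and 105 of E18.5. The change of FOXP1 from 254 to 92 peaks (a ratio of 0.362) stands beside a ratio of 0.388 for the lists as a whole and a smallest library of 26.3 M reads at E18.5. The median ratio of the 9045 genes with 10 or more FOXP1 peaks at E15.5 was 0.50, and 7 of the 8 genes lay below it, Pou3f3 (0.516) above. Without the 20 Cux1 exon peaks described further on, the windows had 234 earlier FOXP1 peaks and a ratio of 0.393. Of the 92 later FOXP1 peaks, 96.7% overlapped an earlier one, beside 96.3% of the whole list. For ARID1B, 76.5% of the E15.5 peaks and 80.8% of the E18.5 peaks overlapped a peak of the other stage, beside 78.2% and 85.5% over the whole lists.

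Outside promoters, Cux2 had 146 peaks in its 194 kb body, 75.4 per 100 kb, and 31.5 per 100 kb in its flanks, 46 of 63 of them on the upstream side. Lhx2 had 39 in 30.5 kb and 38 of its 47 flanking peaks on the downstream side. Mef2c had 72 peaks in 163 kb, with near equal densities of 44.2 (body) and 45.0 (flanks) per 100 kb, and 85 of its 90 flanking peaks lay downstream. Rorb had 14 in 181 kb, with 7.75 and 9.50 per 100 kb. The single-exon Pou3f genes had 4 to 10 peaks in bodies of 3.85 to 7.41 kb, or 71.6 to 135 per 100 kb, and 23.5 to 50 per 100 kb in the flanks. Of the flanking peaks, 60 of 100 were upstream at Pou3f1, 30 of 47 at Pou3f2, and 54 of 98 at Pou3f3.

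**Figure D3:**
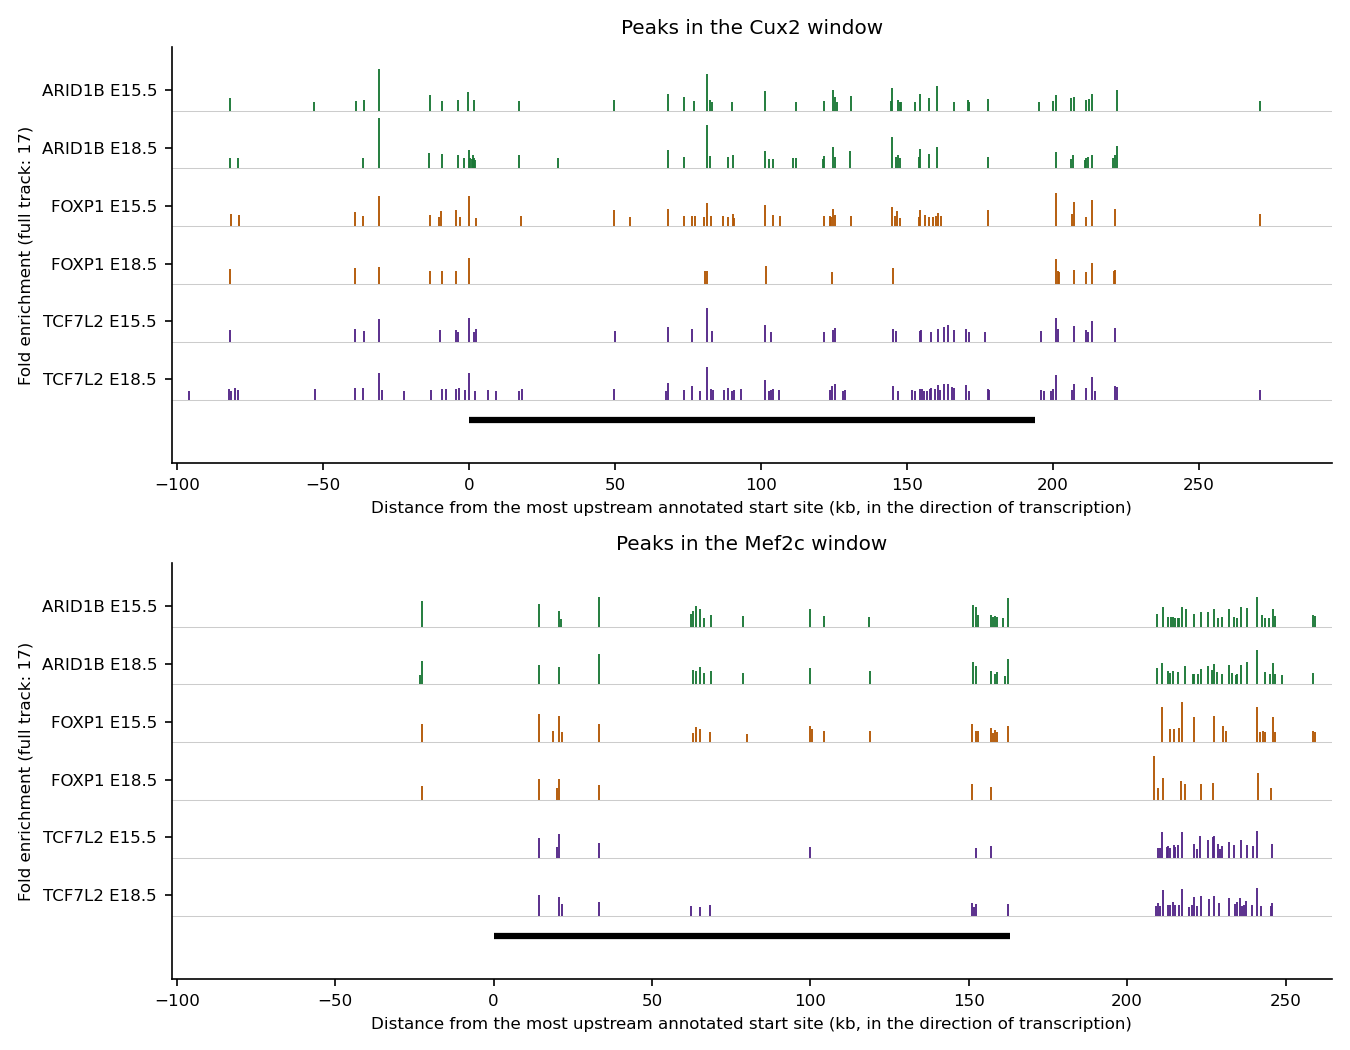
Peaks of the 6 lists in the Cux2 and Mef2c windows, each line at a summit's distance in kb from the gene's most upstream TSS (x axis) with its height the fold enrichment (full track 17). The black bar is the gene body, within which Cux2 holds 146 non-promoter peaks and Mef2c 72. Past the 3′ end of Mef2c lie 85 flanking peaks, not counting those at promoters of other genes.

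The TCF7L2 peaks of Cux2 numbered 40 at E15.5 and 81 at E18.5, a ratio of 2.02. The ratio was 1.61 for the list sizes and 1.45 at the median of the 5117 genes with 10 or more TCF7L2 peaks at E15.5, and Cux2 stood at the 94.8th percentile of these. Among the other genes, Rorb had a ratio of 2.33 (3 and 7 peaks), Cux1 1.93 (91.9th percentile), Lhx2 1.81, and Pou3f3 1.75. Pou3f1 had 1.43, Mef2c 1.24, and Pou3f2 0.750. Of the 81, 46 were without an earlier counterpart, leaving 43.2% with one, beside 56.5% of the whole TCF7L2 E18.5 list. They comprised 24 intronic, 4 exonic, 11 flanking, and 7 promoter peaks, and were weak, with a median fold of 3.06 and a highest of 4.05, while the shared ones had a median of 3.83. With both lists reduced to the same number of peaks, Cux2 had 27 (E15.5) and 26 (E18.5), and above a common fold of 3.21 it had 33 and 43. At −log10 p of at least 15 it had 9 and 14, a ratio of 1.56. At E18.5, 43 of the 88 Cux2 loci (48.9%) had TCF7L2 alone, beside 17.9% of all loci of that stage. The share was 42.4% at Lhx2 (14 of 33), 0% to 23.7% at the remaining genes, and 29.4% over all 8 windows. The strongest TCF7L2 peaks of Cux2 appeared in both lists. The intronic one near 121968618 had folds of 10.9 (E15.5) and 10.5 (E18.5), and the flanking one 31.0 kb upstream, whose sequence is given above, had 7.44 and 8.65.

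Counts of peaks also moved where neighboring peaks joined or split. At Pou3f2, TCF7L2 peaks went from 12 to 9, while the bases under them went from 9.44 to 12.8 kb and the median width from 652 to 1276 bp. All 12 earlier peaks overlapped a later one, as did 95% of the whole TCF7L2 E15.5 list. ARID1B peaks there went from 10 to 16, with 11.1 and 10.6 kb covered and the median width going from 1014.5 to 462 bp. Of the 16, 13 (81.2%) overlapped an earlier peak, beside 85.5% of the whole ARID1B E18.5 list. The other 3, all flanking, did not, so that part of the rise was not splitting. The ratio of 1.60 stood at the 99.9th percentile of genes with 10 or more ARID1B peaks at E15.5.

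At Cux1, a part of the FOXP1 peaks of E15.5 sat on exons. Of 52 FOXP1 peaks in the window at E15.5, 20 overlapped exons past the first of the protein-coding transcript ENSMUST00000176216.8, and together they touched 21 of its 22 such exons, which are 48 to 846 bp long. In 19 of these exons the summit lay inside the exon, and the median distance from summit to exon center was 7 bp. The peaks were 204 to 703 bp wide, with folds from 3.92 to 11.1 and a median of 6.52. No peak of the other 5 lists overlapped any of the 20, the FOXP1 list of E18.5 included. Most FOXP1 peaks of E15.5 had no later counterpart: 34.2% of the whole list and 28.3% of those in the 8 windows overlapped a FOXP1 peak of E18.5. With the first exon, 22 of 23 exons had a FOXP1 peak at E15.5, the highest share among the 8042 protein-coding genes with a transcript of 10 or more exons, whose median was 7.14%. In each of the other lists, the highest share for a Cux1 transcript of 10 or more exons was 1 of 23. A second transcript, ENSMUST00000176745.7, also had 22 of 23 exons under a FOXP1 peak at E15.5, while ENSMUST00000004097.15 had 14 of 24. With the first exon left out and only summits inside exons counted, Cux1 had the highest share of the 8042 genes in this list, 19 of 22 exons (86.4%). The gene with the highest share in the FOXP1 E18.5 list had a like pattern: Foxp2, which encodes another forkhead factor, had 8 of 9 exons past the first of ENSMUST00000131414.7 with a summit inside, from 8 separate peaks. In the other 4 lists, the highest share by summits ran from 30% to 55.6%. Genes with a high share of exons under any peak there were of another kind, such as Cwc22 in both ARID1B lists, with 20 of 20 exons past the first under 3 or 4 peaks and a summit in none. These other genes were named after their values were seen. Whether the Cux1 exon peaks stand for protein bound to chromatin or for spliced Cux1 sequence in the libraries was not tested, so they are not read here as binding.

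The exon with the highest fold, exon 11 of that transcript, shows how the peak sits (GRCm38, minus strand, in the direction of the gene, exon in capitals). Its peak spans chr5:136326605-136327072, 468 bp around an exon of 189 bp, with 87 reads over the summit and a fold of 11.1 (8.95 to 13.7).

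Cux1, exon 11 and 55 bp on either side, chr5:136326695-136326993: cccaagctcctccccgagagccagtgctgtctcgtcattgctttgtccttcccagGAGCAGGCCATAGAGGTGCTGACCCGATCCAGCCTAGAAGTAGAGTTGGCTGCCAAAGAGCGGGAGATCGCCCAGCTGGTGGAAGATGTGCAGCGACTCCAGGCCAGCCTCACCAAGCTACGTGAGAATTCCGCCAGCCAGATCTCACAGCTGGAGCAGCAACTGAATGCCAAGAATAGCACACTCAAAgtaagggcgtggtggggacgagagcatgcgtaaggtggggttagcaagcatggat

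**Figure D4:**
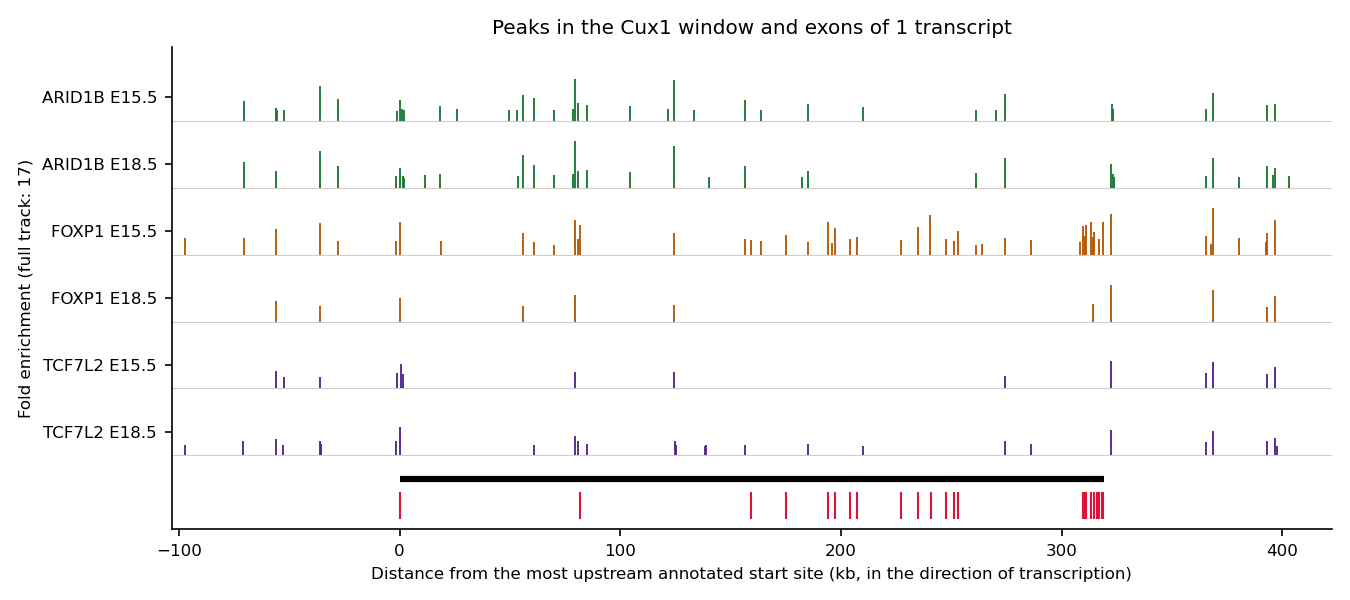
Peaks of the 6 lists in the Cux1 window, each line at a summit's distance in kb from the most upstream TSS (x axis) with its height the fold enrichment (full track 17), above the gene body (black) and the exons of ENSMUST00000176216.8 (red). All 6 tracks have a peak at the first exon, and past it, peaks over the red exon marks appear in the FOXP1 E15.5 track alone, on 21 of 22 exons.

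These peaks made up a large part of the Cux1 counts for FOXP1 at E15.5. Without them the window had 32 peaks rather than 52, or 6.16 rather than 10.0 per 100 kb, beside an upper quartile of 5.73 for all protein-coding genes. Its FOXP1 ratio of E18.5 to E15.5 was then 0.344 rather than 0.212. They made up 20 of the 29 Cux1 loci with FOXP1 alone at E15.5, and 3 of the 20 counted as own-promoter peaks because annotated TSSs lie 3 to 23 bp from their summits.

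Apart from the exons, Cux1 had 2 strong intronic sites. At chr5:136487167-136489036, 77.6 kb from the nearest Cux1 TSS, the E15.5 folds were 11.7 (ARID1B), 9.62 (FOXP1), and 4.62 (TCF7L2), and the E18.5 folds 13.2, 7.47, and 5.58. At chr5:136442137-136443432, they were 11.6, 5.95, and 4.52 (E15.5) and 11.8, 4.68, and 4.05 (E18.5). The ARID1B peak was the highest at both sites and both stages, at the 98.1th percentile of its list or higher. In the same window, the FOXP1 maxima were at promoters of neighboring genes, Prkrip1 with a fold of 13.2 (E15.5) and Sh2b2 with 10.4 (E18.5). The TCF7L2 maximum was at the Sh2b2 promoter at the earlier stage (7.86) and at the Cux1 promoter itself at the later one (7.88).

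Unions of overlapping peaks over the 6 lists gave 336 loci in the 8 windows. Of these, 136 (40.5%) had a peak in 1 list, beside 32.3% of the 93916 loci of the genome, and 56 (16.7%) in all 6, beside 17.7%. The 136 include the 20 Cux1 exon peaks, which are not read here as binding. These raise the share in 1 list and lower that in all 6. Without the FOXP1 E18.5 list, 80 of 334 loci (24%) had a peak in all other 5, beside 24.9% over the genome. Of the 56, 10 were own promoters, 19 were promoters of other genes, and 27 were non-promoter loci. A locus was placed by any of its peaks, which is looser than a promoter peak in each list. The own promoters thus include the Pou3f1 locus chr4:124656232-124660385, whose FOXP1 peak of E18.5 lies inside the gene. Among the 57 promoter loci of the windows, 29 (50.9%) were in all 6 lists and 12 (21.1%) in 1, beside 53.1% and 4167 of 22507 over the genome. Among the 279 non-promoter loci, 27 (9.68%) were in all 6 and 124 (44.4%) in 1, beside 6.51% and 36.6%. The 124 include the remaining Cux1 exon peaks. Cux2 had 7 of the 27, Cux1 5, Pou3f1 and Mef2c 4 each, Pou3f2 3, and Pou3f3 and Lhx2 2 each. Rorb had none.

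The 27 loci were also placed by the percentile of their fold within each list, which depends on the list's length, since a shorter list lacks weak peaks. For 17 of them the highest percentile was in an ARID1B list, for 7 in a FOXP1 list, and for 3 in a TCF7L2 list, or 63.0%, 25.9%, and 11.1%. Over the 4648 such loci of the genome, the shares were 56.6%, 30.6%, and 12.8%, in the same order. At the 10 own promoters, the counts were 2, 2, and 6, beside 8%, 58.5%, and 33.5% of the 11281 loci of all 6 lists at promoters of protein-coding genes. By the number of stronger peaks in the list, which the weak end of a list does not set, the counts were 14, 7, and 6 for the 27 loci (genome 49.1%, 31.3%, and 19.6%) and 2, 0, and 8 for the own promoters (genome 4.46%, 52.3%, and 43.2%). The split of the 27 loci was thus near that of the genome, and the 10 promoters had fewer FOXP1 and more TCF7L2 cases, in counts too small to compare further. At the 19 promoters of other genes in the windows, the percentile counts were 4, 7, and 8, a shift in the same direction. It was thus not seen at own promoters alone. The median percentile of the 27 was 91.0 (E15.5) and 86.0 (E18.5) for ARID1B, 80.7 and 35.1 for FOXP1, and 58.0 and 75 for TCF7L2. Over the genome, it was 82.8 and 81.7, 79.0 and 38.4, and 49.4 and 70.2. The medians of the 27 fall in the order of the list lengths, from 71411 to 24872 peaks, so that the length of a list and its level at these loci cannot be told apart by them. The median number of stronger peaks was 6155 and 8962 for ARID1B, 12024 and 15331 for FOXP1, and 13268 and 12721 for TCF7L2. Over the 4648 loci of the genome, it was 11728 and 11734, 13058 and 14554, and 15897 and 15100. The highest ARID1B peak of all 8 windows was the Cux2 flanking locus 31.0 kb upstream of the TSS, with a fold of 13.6 (11.6 to 15.9) at E15.5 and 16.6 (13.7 to 19.8) at E18.5. The Cux2 intronic locus at chr5:121966508-121969452 stood at the 98.4th percentile or higher in both ARID1B and both TCF7L2 lists, with folds of 12.1 and 14.2 for ARID1B. FOXP1 was lower there, with 7.72 (E15.5) and 4.24 (E18.5).

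**Figure D5:**
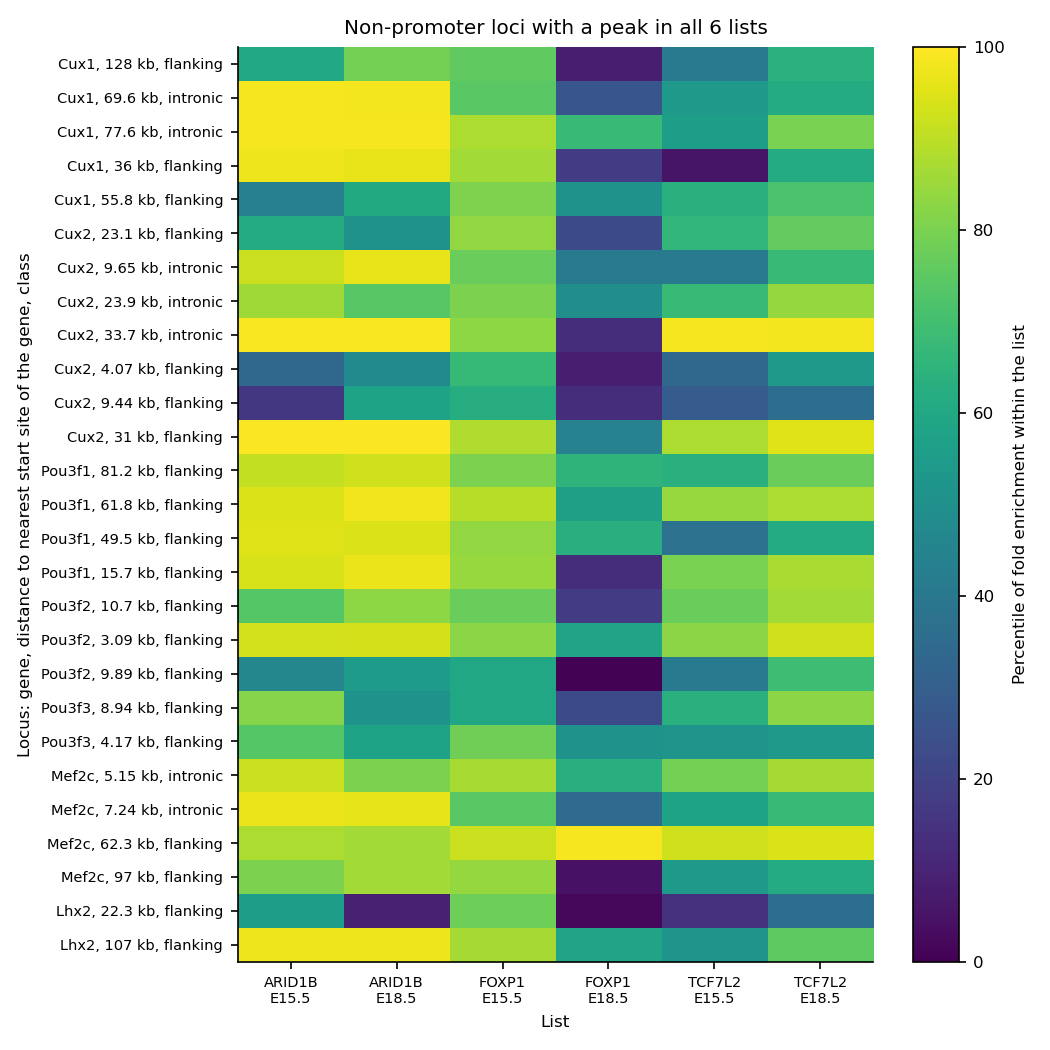
The 27 non-promoter loci with a peak in all 6 lists (rows, with gene, distance to the gene's nearest TSS, and class) by list (columns), colored by the percentile of the locus's fold enrichment within its list. The highest percentile of a row falls in an ARID1B list for 17 loci, and the FOXP1 E18.5 column has the lowest median, 35.1, in lists of unequal length (71411 to 24872 peaks, ARID1B E15.5 the longest and FOXP1 E18.5 the shortest).

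At Mef2c, the locus printed above lay past the 3′ end, at chr13:83712268-83717318, 62.3 kb from the nearest Mef2c TSS. Its E15.5 folds were 6.50 (ARID1B), 11.6 (FOXP1), and 8.38 (TCF7L2). At E18.5, ARID1B had 6.87 and TCF7L2 8.43, and FOXP1 had 7.18 (5.34 to 9.46) at the summit shared with the other TRs. A second FOXP1 peak at the edge of the locus, chr13:83712353-83712811 and 59.7 kb from the TSS, had 14.5 (11.8 to 17.7), the highest FOXP1 fold of that stage in the 8 windows. This locus opens a row of peaks that runs on over the promoters of the noncoding gene C130071C03Rik and of Mir9-2, the gene of a precursor of the neuronal microRNA miR-9. One FOXP1 peak of E15.5 there was 10453 bp wide, with a fold of 11.6. The locus around it had folds of 9.79 and 11.2 for ARID1B and of 8.59 and 8.87 for TCF7L2 at E15.5 and E18.5. Which gene these sites act on was not measured.

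In the windows of Pou3f1, Pou3f2, and Pou3f3, non-promoter loci in all 6 lists lay on the upstream side in 7 of 9 cases. The Pou3f2 locus 3.09 kb upstream had E15.5 folds of 7.66 (ARID1B), 7.59 (FOXP1), and 6.82 (TCF7L2), and E18.5 folds of 8.56, 6.44, and 7.99. For ARID1B at E18.5, this locus was above the promoter, which had 6.31. The Pou3f1 locus 61.8 kb upstream had 8.10, 10.3, and 7.02 (E15.5) and 11.6, 6.30, and 6.90 (E18.5). The highest fold in any of the 8 windows, 41.0 (36.7 to 45.7) for FOXP1 at E15.5, lay 58.0 kb from the Pou3f1 TSS at the promoter of Sf3a3, which encodes a splicing factor subunit. There, the other folds were 9.17 and 10.8 for ARID1B, 8.28 and 8.76 for TCF7L2, and 13.9 for FOXP1 at E18.5.

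Rorb had 12 loci in 381 kb. The strongest was intronic, 4.27 kb from the nearest TSS of the second Rorb promoter, with ARID1B folds of 7.30 (5.82 to 9.05) at E15.5 and 7.99 (6.07 to 10.3) at E18.5. FOXP1 had 5.82 there at E15.5 and no peak at E18.5, and TCF7L2 had 3.37 and 3.50. A second intronic locus, 10.2 kb from the first TSS, had ARID1B folds of 6.50 and 6.87, a FOXP1 fold of 4.81 at E15.5, and no TCF7L2 peak. Both ARID1B values exceeded the ARID1B fold of the Rorb promoter, with overlapping intervals.

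Loci with all 3 TRs at one stage numbered 93 of 295 (31.5%) in the windows at E15.5, against 30.1% of loci over the genome. At E18.5, they numbered 61 of 306 (19.9%), against 22.9%. The 295 loci of E15.5 include the 20 Cux1 exon peaks, none of them among the 93. Without these peaks, 275 loci were left. Among non-promoter loci, the share was 56 of 239 (23.4%) at E15.5, against 18.1%, and 31 of 248 (12.5%) at E18.5, against 10.4%. The 239 include those Cux1 exon peaks that lie outside promoters. With FOXP1 left out, which asks for 2 TRs rather than 3, 109 of 242 loci (45%) had both ARID1B and TCF7L2 at E15.5 and 136 of 301 (45.2%) at E18.5, beside 37.2% and 42.9% over the genome. Pou3f2 had the highest share, 6 of 8 loci at E15.5 and 4 of 8 at E18.5, and Pou3f3 a low one, 7 of 39 and 4 of 36.

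The motif cores searched on both strands of the 200 bp around summits were TGTTTAC (forkhead), ATCAAAG (TCF/LEF), CAGCTG and CATCTG (E-boxes), and ATGCAAAT (the octamer bound by POU factors). Counts in the windows were small. The forkhead core was in 6 of 254 FOXP1 windows at E15.5 (2.36%, list 2.89%) and in 5 of 92 at E18.5 (5.43%, list 2.28%). The TCF/LEF core was in 2 of 151 TCF7L2 windows at E15.5 (1.32%, list 2.36%) and in 10 of 245 at E18.5 (4.08%, list 2.58%). Neither excess was limited to the TR of that core. The forkhead core lay above the whole list in 2 of 6 lists, ARID1B (4.49%, list 3.46%) and FOXP1 at E18.5. The TCF/LEF core lay above in 3 of 6, those of all 3 TRs at E18.5. CATCTG was in 10.9% to 25.3% of the windows of a list, beside 14.4% to 28.9% over whole lists, and lay above the whole list in 2 of 6. CAGCTG was in 13.4% to 21.6%, beside 13.1% to 19.6%, and also lay above in 2 of 6. The octamer was in 0.408% to 2.94%, beside 1.33% to 2.14%, and lay above in 3 of 6.

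Summed over the 6 lists, other lists of cortical genes had lower median densities, while for TCF7L2 at E15.5 the radial glia genes had 7.13 per 100 kb against 6.39. Over 10 other upper-layer genes, the median was 13.7 peaks per 100 kb. It was 22.9 over 8 deep-layer genes and 50.4 over 8 radial glia genes, with 60.6 for the 8 genes described here. Promoter peaks in all 6 lists were found for 8 of the 10 other upper-layer genes, 7 of the 8 deep-layer genes, and 7 of the 8 radial glia genes. The genes without one were Calb1 (ARID1B and FOXP1 at E18.5), Lamp5 (TCF7L2 at E15.5 and FOXP1 at E18.5), Fezf2 and Fabp7 (both FOXP1 at E18.5). The genes with the most similar promoter folds over the 6 lists, by root mean square difference of log2 values among 11375 genes, were Syt14 for Cux1 (0.063), Rasgef1b for Cux2 (0.057), Rab34 for Pou3f2 (0.15), Sprtn for Pou3f3 (0.042), Zeb1 for Rorb (0.064), Slc25a1 for Mef2c (0.076), and Efcab2 for Lhx2 (0.069). Pou3f2 was the farthest from its nearest gene.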

How the data were processed

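Peak lists of ChIP-seq for ARID1B, FOXP1, and TCF7L2 (TCF4 in the labels) at E15.5 and E18.5 were analyzed, 1 for each TR and stage. Per the labels and the study's methods, the authors aligned single-end reads to GRCm38 (mm10) with BWA 0.7.15, kept alignments of mapping quality 30 or more (SAMtools), and ran MACS2 2.2.7 for narrow peaks at a q-value of 0.01, on merged replicates per the methods, with a constant background and reads extended to 200 bp. How duplicate reads were treated is not stated in the methods. The deposited lists give the fold enrichment (a ratio to background), −log10 of the p-value and of the q-value, and a score, which was not used. Fold enrichments and p-values are those of the authors.

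Read depth and the reads over each summit were recovered from the fold and p-value of each peak, which 1 Poisson background per list ties within 0.01 of −log10 p for 100% of value pairs. The recovery was tested on simulated data. Gene bodies, exons, and TSSs came from GENCODE vM21, and sequences from the GRCm38.p6 reference. Every peak on the main chromosomes ended within its chromosome. Overlap of at least 1 base was counted. Loci are unions of overlapping peaks. A peak at both a promoter and elsewhere was taken as promoter, the gene's own before another's. Analysis used Python 3.11.15, pandas 2.3.3, NumPy 2.4.6, and SciPy 1.17.1. The genes, the comparison lists, and the settings were chosen with earlier results of these data known. Genes other than the 8 are named when their promoter holds 1 of the 3 highest peaks of a window in a list, when they lack a promoter peak in a comparison list, or when they are nearest in promoter folds. The Cux1 exon pattern and transcript were chosen after the values were seen. Alternatives were a stricter p-value, lists of equal size, a common fold, summit positions, other flanks, and other promoter definitions.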

Additional observations from a re-analysis of the deposited data

How the results depend on the processing

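Of 196 values recomputed under other settings, 32 counts and 4 promoter folds moved, which for a count means by over 1.5 times and for a promoter fold out of its counting interval. Keeping only peaks with −log10 p of at least 15 gave 84 (ARID1B), 103 (FOXP1), and 46 (TCF7L2) window peaks of E15.5, 79, 25, and 60 of E18.5, and 58, 69, 20, 55, 8, and 30 non-promoter peaks in the same order. With lists of equal size (24890 peaks), the windows held 81, 101, and 112 (E15.5) and 79, 92, and 105 (E18.5) peaks, of which 55, 67, 63, 55, 54, and 68 were non-promoter peaks. Above a common fold of 3.21, TCF7L2 at E18.5 had 145 peaks, 100 of them non-promoter. Loci with all 3 TRs numbered 34 (E15.5) and 19 (E18.5) at the stricter p-value, 49 at E15.5 with lists of equal size, and 136 at E18.5 as loci of ARID1B and TCF7L2 once FOXP1 was left out, a setting chosen after seeing the data, like the removal of the Cux1 exon peaks or of the FOXP1 E18.5 list, the Cux2 ratios, and the number of stronger peaks, by which 6 rather than 3 distal loci of all 6 lists stood highest in a TCF7L2 list. Of the 23 promoter pairs of the stages, 1 had fold intervals apart (Pou3f2, FOXP1) and 0 without the added count of 1, also chosen after seeing the data. With the summit inside the promoter, 5 genes had a TCF7L2 promoter peak at E15.5, the ARID1B fold of Pou3f2 was 3.39 (E15.5) or 4.07 (E18.5), the FOXP1 fold of Pou3f1 at E15.5 was 3.16, and 9 values of Pou3f1, Pou3f2, and Rorb could not be given because no summit was left. With promoters to 500 bp downstream, the ARID1B fold of Pou3f1 at E18.5 was 6.17. The Cux2 TCF7L2 ratio was 0.963 with lists of equal size, 1.30 above the common fold, and 1.56 at the stricter p-value. Each of these settings keeps fewer or other peaks by construction. None of the 6 counts of window peaks changed by over 1.5 times with flanks of 50 or 200 kb, the only counts recomputed with them, and none of the 6 promoter counts with protein-coding TSSs only. No paired analysis was possible because there is 1 list per condition, and for the same reason no replicate could be left out. FOXP1 at E18.5, with 26.3 M reads in the smaller library and no peak under a fold of 3.21, limits what can be seen as shared between lists.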
